A study of Homo sapiens with 6 samples.

Results

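Keratin genes were read in the RNA of small extracellular vesicles, membrane particles that cells shed. The vesicles were isolated by dielectrophoresis from medium of Cal27 spheroids, Cal27 being an established squamous carcinoma line of the tongue. A gene was a member if its symbol was KRT, digits and at most a single letter A, B or C, which left out keratin-associated proteins, pseudogenes and antisense genes. The rule found 55 of the 38167 genes in the count table. They were 8 squamous and simple keratins (KRT5, KRT6A, KRT8, KRT14, KRT16, KRT17, KRT18 and KRT19), 17 hair keratins (KRT31 to KRT40 and KRT81 to KRT86, KRT33 being the pair KRT33A and KRT33B) and 30 others. All spheroids were grown to day 14, without any named gene change or drug, in Matrigel, an extract of basement membrane that sets as a gel. The soft group was held at 3 mg/mL and the stiff group at 12 mg/mL, with 3 libraries each that the titles call biological replicates. Nothing in the sources used here says whether they came from separate cultures, so p-values measure the spread between these libraries, which may be technical. The cells are 1 line, so the groups say nothing of other tumours.

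Keratins are the intermediate filament proteins of epithelia. A filament forms when an acidic type I keratin pairs with a basic type II keratin, and each epithelium uses its own pairs. KRT5 and KRT14 pair in the basal layer of stratified squamous epithelium, KRT6A with KRT16 and KRT17 appear in wounded or proliferating epithelium and in squamous carcinoma, and KRT8, KRT18 and KRT19 belong to simple epithelia and are often gained in carcinoma. Hair keratins build the shaft of hair and nail, and most are not usual products of oral epithelium. In GENCODE release 29 (GRCh38), 27 members lay on chromosome 12 between 52168996 and 52952901, the type II genes together with the type I gene KRT18. The other 28 lay on chromosome 17 between 40654665 and 41624842.

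Many keratins are recent copies of each other, and a pair of 61-base reads, as sequenced here, cannot always be given to a single gene. The windows below are 61 bases of coding sequence from GENCODE release 29 transcripts, positions counted from the start codon. They are shown for KRT14, KRT16 and KRT17 because the result on KRT14 rests in part on telling these copies apart, and are the closest place where they still differ. Capitals mark the only position at which the 3 windows differ.
KRT14 (coding bases 352 to 412): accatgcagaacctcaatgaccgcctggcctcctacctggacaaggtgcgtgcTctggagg
KRT16 (coding bases 358 to 418): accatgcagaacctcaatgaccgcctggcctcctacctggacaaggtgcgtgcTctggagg
KRT17 (coding bases 259 to 319): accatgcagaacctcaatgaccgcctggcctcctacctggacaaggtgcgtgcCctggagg

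KRT14 and KRT16 are identical in their windows and shared an unbroken coding run of 158 bases, while the longest run shared by KRT14 and KRT17 was 59 bases. KRT6A shared runs of 269 bases with KRT6B and 349 with KRT6C. Among hair keratins, KRT81 and KRT86 shared 605 bases. Of all 61-base words in the transcript, those found exactly in a transcript of another gene made up 16.1% for KRT14, 14.5% for KRT16, 10.2% for KRT17, 32.6% for KRT6A, 37.1% for KRT86 and 40.8% for KRT81. KRT8 (27.9%) and KRT18 (37.2%) have many processed pseudogenes, and KRT5 was at 3.0% and KRT19 at 0.5%. In all, 16 of 55 members exceeded 10%, and for 14 no word was shared. How reads that fit several places were counted was not given in the sources used here, so single values of the genes over 10% are uncertain. The strand setting was not given either, and KRT81 (52285913 to 52291534) lies within the span of KRT86 (52249300 to 52309163) on the opposite strand. The spans of KRT8 and KRT18 overlap on opposite strands too, and that of KRT7 overlaps the start of KRT86.

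Totals ranged from 2445498 to 2977837 counts per library, and 97.5% to 97.9% of genes had at least 1 count. No pair of replicates matched within counting error (chi-square per degree of freedom 1.53 to 3.86). Ribosomal RNA genes took 2.97% to 8.87% of counts in soft libraries and 20.0% to 22.9% in stiff ones, and mitochondrial messengers 1.48% to 1.81% and 0.162% to 0.201%. The part of these shifts in the results below was not tested, and values are therefore given as CPM, counts scaled to a common library size by TMM, which places the middle of all genes near no change.

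Every keratin was detected in every library, at 17 to 141 counts. Together the 55 genes held 3278, 3303 and 3108 counts in soft replicates 1 to 3, and 3020, 3424 and 3237 in their stiff counterparts. As a share of all counts this was 0.134%, 0.131% and 0.122% in soft and 0.112%, 0.118% and 0.109% in stiff. Summed CPM was 1190 ± 16.2 in soft and 1253 ± 28.8 in stiff (SD, n = 3 each). The total was thus lower in stiff as a share of counts and higher on the TMM scale. In bulk RNA, fewer cells that shed a transcript and less of it per cell cannot be told apart.

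Per length, the keratins of squamous carcinoma stood little above those of hair. Levels are CPM per kb of exon, taking the exons of the transcripts that GENCODE links to RefSeq. The median of the 8 squamous and simple keratins was 12.3 ± 1.10 in soft and 13.9 ± 0.367 in stiff (SD, 3 libraries each), and that of the 17 hair keratins 9.80 ± 0.607 and 10.6 ± 0.666. The ratio of these medians was 1.28, 1.27 and 1.20 in soft replicates 1 to 3 and 1.30, 1.44 and 1.22 in stiff ones. Its mean was 1.25 ± 0.0434 in soft and 1.32 ± 0.112 in stiff, and the groups overlapped. The log2 difference, stiff minus soft, was 0.077, and 0.011 without stiff replicate 2. With summed counts over summed length it was 0.214, and 0.309 with KRT5 as the single squamous keratin against 12 hair keratins, and in both the groups did not overlap. The order rests on the gene models, which were chosen after the counts had been looked at: with all annotated exons as length the ratio was 0.777 in soft and 0.856 in stiff. The classes also overlapped gene by gene, at 10.01 (KRT6A) to 17.7 (KRT19) for squamous and simple keratins and 6.32 (KRT34) to 20.3 (KRT86) for hair keratins, as means of 6 libraries.

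**Figure D1:**
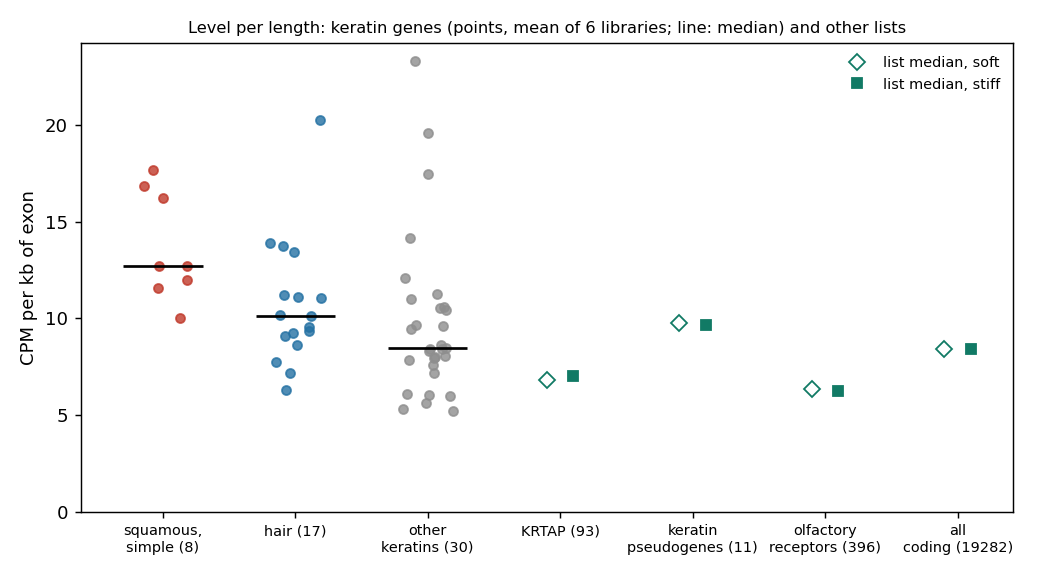
CPM per kb of exon. Points are single keratin genes (mean of 6 libraries) with the class median as a line, and green marks are medians of other gene lists in soft (open) and stiff (filled) libraries. The 8 squamous and simple keratins lie between 10.01 and 17.7, inside the span of the 17 hair keratins, 6.32 to 20.3.

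The highest keratins per length were of several kinds. KRT7, a type II keratin of glandular and simple epithelia, was the first at 23.8 ± 2.76 in soft and 22.9 ± 2.09 in stiff, with 126, 101 and 112 counts in soft and 101, 96 and 113 in stiff. KRT86, a hair cortex keratin, followed at 19.4 and 21.1. KRT72, of the inner root sheath of the hair follicle, had a mean of 19.6 over 6 libraries. KRT19, KRT73 (another inner root sheath keratin), KRT17 and KRT14 came next, at 17.7, 17.5, 16.9 and 16.3 as means of 6 libraries. From KRT86 to KRT14, replicate values overlapped those of the neighbours in this order. KRT7 and KRT86 overlapped in stiff but not in soft, where the lowest KRT7 value was 20.9 and the highest KRT86 value 20.2. The order also depends on the gene models. With all annotated exons as length KRT7 stood at 10.0, KRT86 at 18.8 and KRT72 at 18.3. KRT73, KRT14, KRT19 and KRT17 then stood at 15.1, 11.8, 10.5 and 8.17. At the low end stood KRT15, a basal keratinocyte keratin, at 5.24, KRT26 at 4.98 in soft and 5.66 in stiff, and KRT28 at 5.92 and 5.38, the last pair again of the inner root sheath. KRT15 rests on a gene model of 5237 bases, the longest of the members, although its 65 to 78 counts are like those of KRT14.

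Against the 19282 protein-coding genes with a length, single keratins stood at percentiles 23.5 to 93.0 per length, and 35 of 55 were above the middle. All 8 squamous and simple keratins were above it, from 59.5 for KRT6A to 85.0 for KRT19, with KRT5 at 71.6 and KRT14 at 79.5. Of the hair keratins 13 of 17 were above it, from 33.2 for KRT34 to 89.7 for KRT86. These places rest on the RefSeq-linked exons, chosen after the counts had been looked at. With all annotated exons the level of KRT8 went from 11.6 to 3.93, KRT18 from 12.0 to 6.06 and KRT5 from 12.7 to 7.48. Of the hair keratins, KRT40 went from 10.2 to 8.10 and KRT34 stayed at 6.32. Percentiles on that length are not given. Keratin pseudogenes, 11 in the table, had medians of 9.79 in soft and 9.65 in stiff. The 93 keratin-associated protein genes, which encode the matrix between hair keratin filaments, had 6.84 and 7.03, and 396 olfactory receptor genes, which are read in nasal neurons, had 6.35 and 6.26. All coding genes had 8.42 in both groups.

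Levels moved with GC content, which differed between the classes. The median GC content of transcripts was 60.5% for squamous and simple keratins, 58.9% for hair keratins, 52.9% for keratin-associated protein genes and 45.7% for olfactory receptors. Across the 55 keratins, level per length and GC content had a Spearman rho of 0.728 and a Pearson r of 0.622. This is a description across genes of the same 6 libraries, and genes are not independent replicates. Coding genes showed the same slope, from 5.81 CPM per kb at 40 to 45% GC to 9.01 at 50 to 55% and 11.6 at 55 to 60%. Among genes of 60 to 65% GC, the 5 squamous and simple keratins had a median of 16.2 and the 4 hair keratins 12.5, while all 2274 coding genes had 15.5 in soft and 16.4 in stiff. At 55 to 60% the 3 squamous keratins stood at 11.6, the 9 hair keratins at 10.1 and 3125 coding genes at 11.6. On the RefSeq-linked exons, and set beside coding genes of like GC content, the squamous keratins were thus at the median. The hair keratins were somewhat below it.

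**Figure D2:**
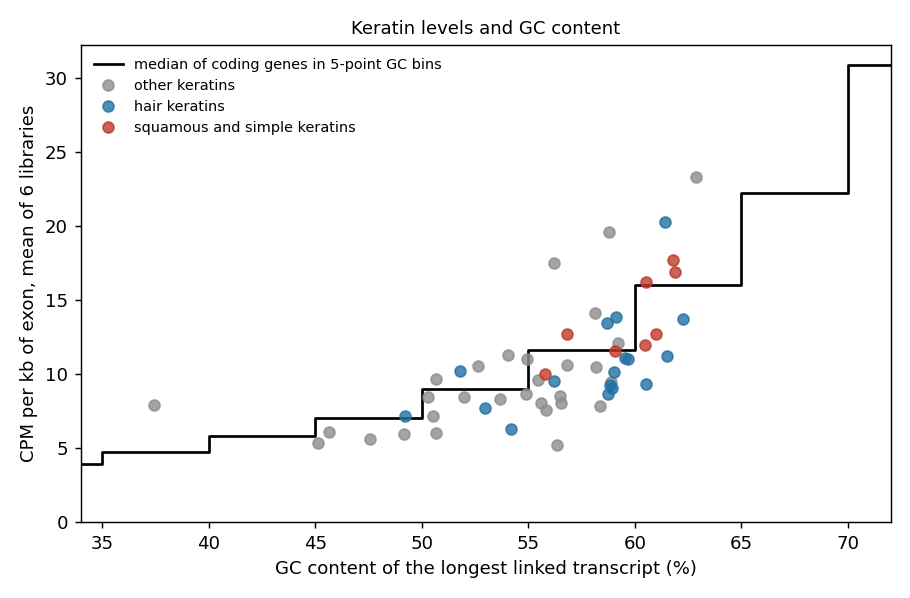
CPM per kb of exon (mean of 6 libraries) against GC content in percent for 55 keratins, coloured by class, with the median of all coding genes in bins of 5 percentage points as a black line. Squamous and simple keratins lie around the line, which stands at 11.6 for 55 to 60% GC.

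The position of the genes was described in the same way. Keratins on chromosome 12 had a median of 10.5 ± 0.270 in soft and 10.7 ± 0.265 in stiff, and the 46 other coding genes within 1 Mb of them, without keratins or keratin-associated genes, 10.1 and 9.83. Keratins on chromosome 17 had 8.23 ± 0.788 and 9.06 ± 0.676, against 10.8 and 10.7 for 66 neighbours. Keratins on chromosome 12 were thus near their neighbours in level, and those on chromosome 17 below theirs. Median GC content was 56.8% for the chromosome 12 keratins and 56.4% for their neighbours. On chromosome 17 it was 54.6% for the keratins and 57.7% for the neighbours. The parts of position and GC content in these levels were not tested.

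Markers of the labelled cell type were read on the same scale. The 15 markers of squamous epithelium, among them KRT5, KRT14, KRT6A, KRT16, KRT17, TP63 and EPCAM, had a median level of 9.66 ± 1.08 in soft and 9.99 ± 0.734 in stiff. Markers of immune cells stood at 9.99 and 10.6, of hair shaft and follicle at 11.5 and 11.9, of endothelium at 7.58 and 7.33 and of fibroblasts at 5.21 and 5.74. No marker of these lists was at 0 counts in any library. On this measure the squamous markers did not stand above immune or hair markers in either group.

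Between stiff and soft, 1 keratin passed the threshold, and it was KRT14. By edgeR's quasi-likelihood test, with an adjusted p under 0.05 over 31074 genes as a call, 1 of 55 keratins (1.82%) was higher in stiff and 0 lower. Of all genes tested 0.451% were called, 0.286% (89) higher and 0.164% (51) lower, a split that turned to 31 higher and 4163 lower under library totals alone and to 31 and 35 with GC correction. At an unadjusted p under 0.05 there were 6 of 55 (10.9%), 5 higher and 1 lower, where all genes gave 9.51%, 5.01% higher and 4.5% lower. Groups did not overlap in CPM for 9 of 55 (16.4%), 8 with stiff above soft and 1 below, where all genes gave 14.1%, 7.38% above and 6.76% below. Taken over both directions, both latter shares lie near the background. By direction, on the TMM scale, the keratins leaned to stiff (5 against 1 and 8 against 1), where all genes were nearly even. This lean was not tested, and genes are not independent replicates. The median log2 fold change was 0.06 over the keratins and -0.0048 over all genes tested, and 33 of 55 keratins were above 0, as were 15264 of 31074 genes.

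KRT14, which marks basal cells of squamous epithelium (chromosome 17, 41582279 to 41586921, minus strand), had 50, 69 and 49 counts in soft replicates 1 to 3. Its stiff replicates had 85, 103 and 70. Scaled to CPM this was 18.3, 25.0 and 18.5 in soft and 35.0, 38.7 and 26.6 in stiff. All stiff values were above all soft values, the nearest being soft replicate 2 and stiff replicate 3. KRT14 rose by 0.69 ± 0.174 on the log2 scale (SE, 95% interval 0.35 to 1.04), a 1.62-fold rise (edgeR adjusted p = 0.0281). The call was lost without soft replicate 1 (adjusted p = 0.158), soft replicate 3 (0.11), stiff replicate 1 (0.137) or stiff replicate 2 (0.320), and also under library totals alone, at a log2 fold change of 0.43 (0.0873). With limma-voom (0.11), DESeq2 without its filter (0.496) and GC correction (0.0610) the call was lost at log2 fold changes of 0.69, 0.70 and 0.64.

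KRT5, the type II partner of KRT14 in basal cells (chromosome 12, 52514575 to 52520687), had 84, 82 and 67 counts in soft and 92, 92 and 91 in stiff. Its CPM was 28.6 ± 2.94 in soft and 35.7 ± 1.88 in stiff (SD, n = 3), and the groups did not overlap. The log2 fold change was 0.32, with an unadjusted 95% interval of 0.01 to 0.62, and KRT5 did not pass the threshold (edgeR adjusted p = 0.504). Under library totals alone it was 0.05 (edgeR adjusted p = 0.859).

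KRT17, a type I keratin of proliferating and wounded epithelium (chromosome 17, 41619441 to 41624842), had 65, 65 and 45 counts in soft and 80, 79 and 70 in stiff. The lowest stiff value was 26.6 CPM and the highest soft value 23.8, so the groups did not overlap. The log2 fold change was 0.46 ± 0.178 (edgeR adjusted p = 0.296), and 0.19 under library totals alone (0.462). KRT16, its neighbour at 41609778 to 41615899 and also induced in wounds, had 58, 64 and 43 counts against 45, 62 and 60, which overlapped, with a log2 fold change of 0.09. Summing the 3 copies KRT14, KRT16 and KRT17 leaves the split of reads shared among them aside, if such reads were counted and not dropped. It does not cover words shared with other genes, such as the pseudogenes KRT16P3 (8.9% of those of KRT16) and KRT17P1 (5.7% of those of KRT17). KRT14 shared words with 7 genes, with KRT16 the closest at 7.9% of those of KRT14. The sum gave 173, 198 and 137 counts in soft and 210, 244 and 200 in stiff, or 62.3 ± 10.1 and 84.7 ± 7.90 CPM. On the TMM scale the sums did not overlap and their ratio was 1.36. They were not compared under library totals alone. Without KRT14 the sum of KRT16 and KRT17 was 41.7 ± 7.40 and 51.3 ± 1.75 CPM, a ratio of 1.23.

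KRT6A, the type II keratin of activated epithelium (chromosome 12, 52487174 to 52493257), had 55, 70 and 52 counts in soft and 57, 68 and 65 in stiff, and these overlapped. Its log2 fold change was 0.18 (95% interval -0.19 to 0.54). The sum with its copies KRT6B and KRT6C was 58.8 ± 4.92 and 61.1 ± 8.14 CPM, a ratio of 1.04 with overlapping groups.

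The simple keratins overlapped between groups without exception. KRT8, the type II keratin of simple epithelia (chromosome 12, 52897187 to 52949954), had 85, 79 and 68 counts in soft and 70, 59 and 68 in stiff, with a log2 fold change of -0.16 (95% interval -0.50 to 0.18). It was the only one of the 8 genes of its class below 0. KRT18, its partner (52948871 to 52952901), had 47, 54 and 51 against 40, 63 and 55 counts and a log2 fold change of 0.13 (-0.27 to 0.53). KRT19, the smallest keratin, which lacks most of the tail (chromosome 17, 41523617 to 41528308), had 56, 57 and 79 against 54, 73 and 71 and 0.12 (-0.24 to 0.47).

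**Figure D3:**
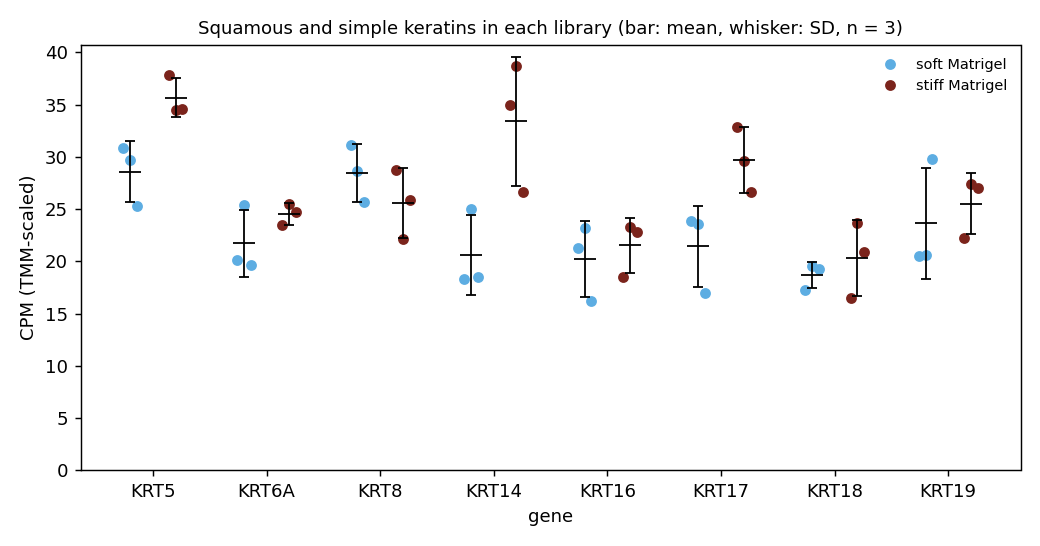
CPM (TMM-scaled) of the 8 squamous and simple keratins in each soft (blue) and stiff (dark red) library, with the mean as a bar and the SD as a whisker (n = 3). KRT5, KRT14 and KRT17 have all stiff points above all soft points, and the other 5 genes overlap. Of all genes tested, 7.38% have all stiff values above all soft values.

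Over the class, 7 of 8 squamous and simple keratins were above 0, with a median log2 fold change of 0.15. Of all genes tested 15264 of 31074 were above 0, and of protein-coding genes tested 10039 of 18737. Coding genes of 55 to 60% and 60 to 65% GC had median log2 fold changes of 0.035 and 0.076. With GC correction the class had 7 of 8 above 0 at a median of 0.12. Groups did not overlap for 3 of 8 (37.5%), where all genes gave 14.1%. Under library totals alone, which moved the median of all genes to -0.27, 3 of 8 were above 0 at a median of -0.12. Hair keratins gave 0 of 17 calls by edgeR, 0 at an unadjusted p under 0.05, 0 by limma-voom and 0 by DESeq2 without its filter, where edgeR called 0.451% of all genes and 9.51% had an unadjusted p under 0.05. Their median was 0.06 with 11 of 17 above 0. That median was -0.08 without soft replicate 3 and -0.01 without stiff replicate 3, so the direction of the class turned with the library left out. Under library totals alone it was -0.21, beside -0.27 for all genes. The intervals of all 17 held 0, and their outer bounds were -0.91 (KRT34) and 0.78 (KRT33A).

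Hair keratins are described by type. Of the type II genes, KRT84, found in the tongue's filiform papillae and nail, had 66, 70 and 76 counts in soft and 70, 85 and 79 in stiff. It was the 1 hair keratin whose CPM groups did not overlap, at 26.1 ± 2.31 and 30.2 ± 1.57, with a log2 fold change of 0.22 (edgeR adjusted p = 0.735). Such genes made up 5.88% of the 17 hair keratins and 14.1% of all genes tested. KRT86 had 120, 111 and 119 against 107, 141 and 114 counts and KRT81 51, 68 and 86 against 66, 74 and 75, and both overlapped. KRT81, KRT83 and KRT86 summed to 89.5 ± 7.83 and 95.5 ± 4.88 CPM, a ratio of 1.07. KRT82, KRT83 and KRT85 had log2 fold changes of 0.04, -0.02 and -0.17.

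The type I hair keratins had fewer counts, 18 to 80 per library. KRT34 (chromosome 17, 41377650 to 41382403) had 36, 37 and 29 in soft and 28, 28 and 18 in stiff, with a log2 fold change of -0.38 ± 0.268. KRT39 (40958417 to 40966892) had 40, 44 and 29 against 22, 25 and 35, with -0.39 ± 0.256. Both were among the 3 lowest fold changes of all keratins, both overlapped between groups and neither passed (edgeR adjusted p = 0.693 and 0.671). Their GC contents were 54.2% and 49.2%, and with GC correction their log2 fold changes were -0.39 and -0.38. Across the 17 hair keratins, log2 fold change and GC content had a Pearson r of 0.676 and a Spearman rho of 0.414. Across all 55 keratins these were 0.137 and 0.202. The part of GC content in the fold changes of this class was not tested. KRT31, which is abundant in the hair cortex, had 40, 52 and 49 against 29, 54 and 58. KRT33A and KRT37, at log2 fold changes of 0.27 each, were the highest of the class, with SEs of 0.258 and 0.241. KRT32, KRT33B, KRT35, KRT36, KRT38 and KRT40 lay between -0.17 and 0.09.

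**Figure D4:**
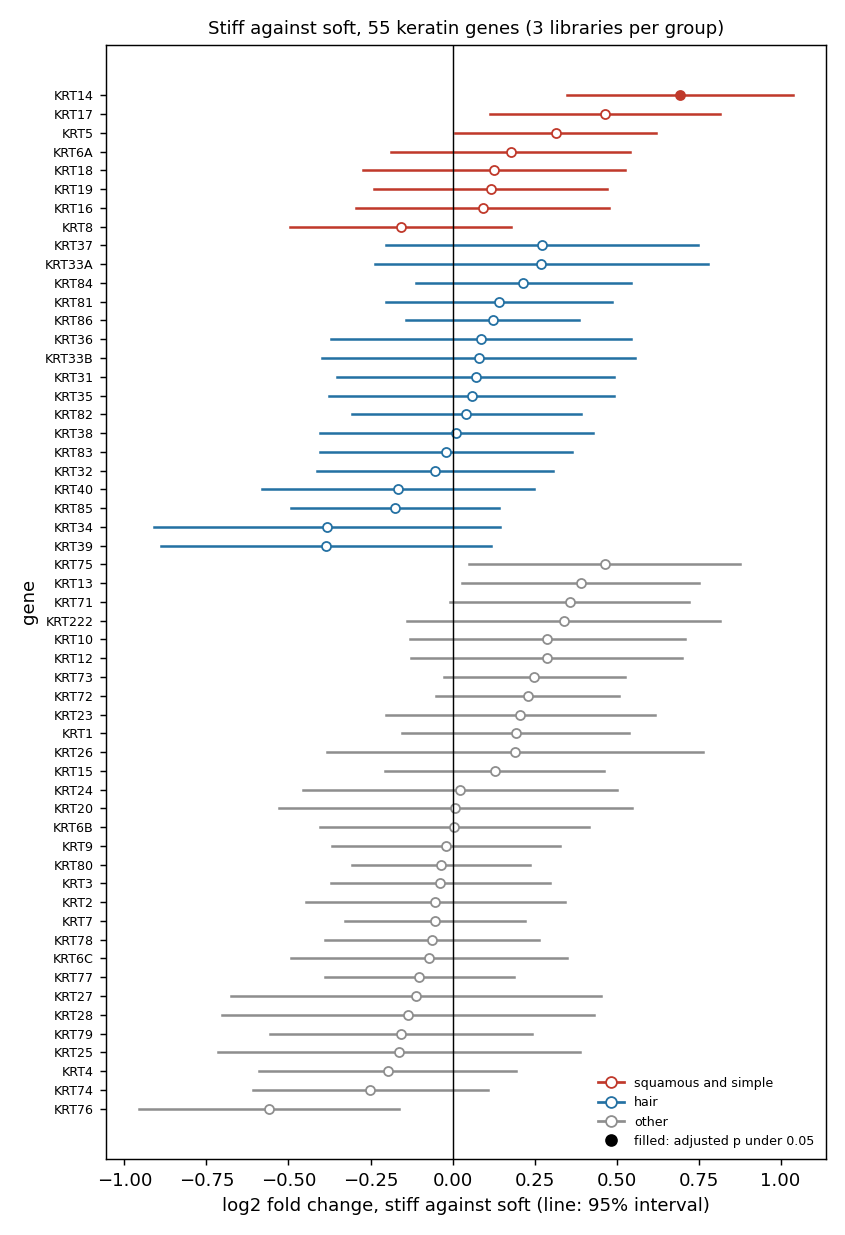
Log2 fold change of stiff against soft for 55 keratin genes with 95% intervals (edgeR), grouped by class and ordered within each. The KRT14 point is the only filled one (adjusted p under 0.05), and 49 of the 55 intervals hold 0, those of all 17 hair keratins among them.

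Among the other 30 keratins, 0 passed by edgeR, limma-voom or DESeq2 without its filter, and 3 (10.0%) had an unadjusted edgeR p under 0.05, a share near the 9.51% of all genes. KRT75, a type II keratin of the companion layer of the hair follicle, had 41, 40 and 44 counts in soft and 48, 55 and 61 in stiff, with groups apart and a log2 fold change of 0.46 ± 0.210 (adjusted p = 0.439). KRT76, a type II keratin of the hard palate and other chewing surfaces of the mouth, had 70, 52 and 75 against 35, 50 and 42. KRT76 was the 1 keratin whose stiff values all lay below the soft ones, at 24.3 ± 4.88 and 16.4 ± 2.22 CPM, with a log2 fold change of -0.56 ± 0.201 (adjusted p = 0.241). Under library totals alone KRT76 passed (edgeR adjusted p = 0.00363), where 4163 of 31074 genes were called lower. KRT13, the type I keratin of the upper layers of non-cornified oral epithelium, named after its values were seen, had 59, 57 and 53 against 79, 72 and 59 and a log2 fold change of 0.39 (adjusted p = 0.470). Its partner KRT4 had 71, 58 and 51 against 44, 67 and 38 and a log2 fold change of -0.20, with overlapping groups. KRT12 of the cornea and KRT73, likewise chosen on sight of the data, were the remaining genes with groups apart, at log2 fold changes of 0.29 and 0.25 (adjusted p = 0.715 and 0.591). KRT7, KRT15, KRT26, KRT28 and KRT72 overlapped, with log2 fold changes of -0.05, 0.13, 0.19, -0.14 and 0.23.

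Suprabasal keratins of skin gave no call either. KRT1 had 74, 59 and 63 counts in soft and 57, 76 and 80 in stiff, and KRT10, its partner, 37, 44 and 50 against 53, 60 and 39, both overlapping. Their log2 fold changes were 0.19 and 0.29. The list of KRT1, KRT2, KRT9 and KRT10, drawn up after the counts were seen, had medians of 9.40 and 10.2 CPM per kb, and the 8 inner root sheath keratins, a list made in the same way, 8.06 and 7.32.

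Genes that work with keratins were read from 3 lists named by function. Of 16 linkers and bundlers of keratin filaments, 2 rose and 0 fell, where 0.286% of all genes were called higher and 0.164% lower. Under library totals alone 0 were higher and 2 lower, where 4163 of 31074 genes were called lower. With GC correction or without robust dispersion 0 of the 16 were called. PLEC, which ties keratin filaments to hemidesmosomes, rose by 0.30 ± 0.0683 (SE) on the log2 scale, from 465 ± 32.8 to 572 ± 21.1 CPM (edgeR adjusted p = 0.00896). EPPK1, epiplakin, which binds and bundles keratin filaments, had 560, 632 and 587 counts in soft and 606, 712 and 778 in stiff, and rose by 0.31 ± 0.0729 (adjusted p = 0.0140). Both transcripts are GC-rich, at 67.0% and 68.2%, and both calls were lost with GC correction, at log2 fold changes of 0.14 and 0.12 (adjusted p = 0.335 and 0.580). Under library totals alone PLEC and EPPK1 stood at 0.03 and 0.04 (0.761 and 0.735). Without robust dispersion the fold changes were the same and the calls were lost (0.145 and 0.0834). Leaving out soft replicate 1 (0.0575 and 0.123) or stiff replicate 2 (0.128 and 0.0708) also ended both. The call of PLEC ended without soft replicate 2 (0.103), and that of EPPK1 without stiff replicate 3 (0.252) or with DESeq2 without its filter (0.114).

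Of 16 regulators of keratin genes, 0 rose and 1 fell, where 0.164% of all genes were called lower. Under library totals alone 5 of 16 were called lower, as were 4163 of 31074 genes. It was GRHL2, an epithelial transcription factor, with 187, 180 and 193 counts in soft and 126, 113 and 122 in stiff, which fell by 0.56 ± 0.120 on the log2 scale (edgeR adjusted p = 0.00418). Leaving out stiff replicate 2 ended the call of GRHL2 (adjusted p = 0.106), as did DESeq2 without its filter (0.108). HOXC13 and FOXN1, regulators of hair keratin genes, and TP63, which drives KRT5 and KRT14 in basal cells, were in this list and did not pass. Of 16 intermediate filament genes other than keratins, 0 passed by edgeR, limma-voom or DESeq2 without its filter, 4 (25.0%) had an unadjusted edgeR p under 0.05 where all genes gave 9.51%, and 6 (37.5%) had groups apart where all genes gave 14.1%. All 16 were above 0, at a median log2 fold change of 0.17. Leaving out soft replicate 1 gave 13 of 16, and under library totals alone 2 of 16 were, at a median of -0.10 against -0.27 for all genes.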

How the data were processed

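Small vesicle RNA from Cal27 spheroids was sequenced in 6 libraries, 3 per group, grouped by title. The authors deposited counts per gene symbol, whole numbers whose library totals differ, so not normalized. The submitters' processing notes name FastQC 0.11.7, Trim Galore 0.4.2, cutadapt 1.9.1, STAR 2.6.1e, featureCounts 1.6.2, DESeq2 1.26.0 and the build hg38, without roles. Reads were paired, of 61 bases, from a directional kit, per the labels' protocols. The annotation, the strand setting of the counting and the handling of multiply placed reads are not given in the sources used here. Groups were compared by edgeR 4.0.16 under R 4.3.3, with TMM, filterByExpr, robust quasi-likelihood fits, two-sided F tests, group as the single term, Benjamini-Hochberg adjustment over 31074 genes. The filter removed 7093 genes and no keratin. Standard errors came from the F statistic. The fit was tested on simulated data. Lengths, GC content and coordinates came from GENCODE release 29 for 27214 symbols (71.3%). Alternatives were limma-voom 3.58.1, DESeq2 1.42.0, other scalings, GC correction (lowess, over 23080 genes), a replicate block and leaving out each library. Members and lists were chosen with earlier results of these data known. Named were the squamous, simple and hair keratins, any keratin past the threshold, the 3 largest changes each way and the 3 highest and 3 lowest levels. Titles gave replicate numbers, since descriptions give 2 stiff libraries the same number. No molecular identifiers are named, so PCR copies can count as separate reads and intervals cover less than the full error. Some sequences are not reported here.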

Additional observations from a re-analysis of the deposited data

How the results depend on the processing

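The count of keratins past the threshold, 1 in the fit reported, was 2 under library totals alone (KRT74 and KRT76, both lower in stiff). In that setting 4163 of 31074 genes were called lower. The keratin count was 0 with limma-voom, DESeq2 without its filter and GC correction. It ranged from 0 to 1 when single libraries were left out. With its filter DESeq2 gave no keratin an adjusted p. The squamous to hair level ratio was 1.13 in soft with summed counts over summed length, 1.20 in soft and 1.49 in stiff with KRT5 alone against 12 hair keratins (leaving out KRT33A, KRT33B, KRT81, KRT83 and KRT86 and the other 7 squamous and simple keratins, a set named for known copies and pseudogenes and not by the shares of shared words, so that KRT19 is out and KRT37 in), and 0.777 and 0.856 with all annotated exons, an alternative chosen after seeing the data. The log2 difference of the ratio, stiff minus soft, was 0.077, and 0.214 with summed counts and 0.309 with KRT5 alone, in both of which the groups did not overlap. The cause of these shifts was not tested. Of 492 values for 35 named genes under alternatives, 23 lost a call, those of KRT14, PLEC, EPPK1 and GRHL2, 1 gained one (KRT76), and 19 without a call changed sign and moved by more than 1 SE. Of these 16 were under library totals alone, which lowered all genes by a median of -0.27, and 3 under other alternatives. Same-numbered libraries did not deviate together (correlations -0.00363 to 0.00346), so the numbers are not shown to pair them. With a replicate block 1 keratin passed, KRT14 (adjusted p = 0.0198), with 111 genes higher and 62 lower in all, against 89 and 51. Over all genes, calls were 28 higher and 15 lower with DESeq2 without its filter, 47 and 20 with it, 63 and 28 with limma-voom and 31 and 35 with GC correction, and 37 and 23 without stiff replicate 2, 43 and 32 without stiff replicate 3, 59 and 26 without stiff replicate 1, 48 and 29 without soft replicate 2, 49 and 46 without soft replicate 1 and 103 and 33 without soft replicate 3. At 17 to 141 counts per library, SEs of keratin fold changes were 0.134 to 0.291 on the log2 scale, which limits what could be seen.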
